A study of Saccharomyces cerevisiae W303 with 8 samples.

Results

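The genes described here encode the main cytosolic Hsp70 and Hsp90 chaperones of budding yeast (Saccharomyces cerevisiae), the protein disaggregases and the small heat shock proteins. The members are 10 named genes, found on the array by their systematic open reading frame names, of 6228 systematic names on the array. They are SSA1 (YAL005C), SSA2 (YLL024C), SSA3 (YBL075C), SSA4 (YER103W), HSP82 (YPL240C), HSC82 (YMR186W), HSP104 (YLL026W), HSP78 (YDR258C), HSP26 (YBR072W) and HSP42 (YDR171W). Each had 1 probe in 2 spots, stood well above background in Cy5 and in Cy3 on each of the 8 arrays, and passed the filter on dim probes, which 6108 of 6256 probes did. HSP78 is a mitochondrial protein, so the group is not purely cytosolic.

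Hsp70 chaperones hold and refold exposed polypeptides in cycles of ATP use, and Hsp90 finishes the folding of a set of client proteins such as kinases. Small heat shock proteins bind unfolding proteins without ATP, and Hsp104 together with Hsp70 pulls proteins back out of aggregates. In yeast these genes are known as targets of the heat shock factor Hsf1, and several, HSP104 and HSP26 among them, also of the stress factors Msn2 and Msn4. Several of the families pair a gene made in unstressed cells with one that is switched on by stress, such as SSA2 with SSA4 and HSC82 with HSP82.

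RNA was measured in W303 cells grown in YPD at 30 degrees C, before and at 10, 20 and 30 min after NaCl was added to 0.4 M. Both strains were labelled as lacking MSN2 and MSN4 and as carrying a plasmid named pMsn2pMsn2DNES, and CDC55 is missing too in 1 of them, per its label; that gene encodes a B-type regulatory subunit of the phosphatase PP2A. They are called control cells and cdc55 cells here. The series asks what PP2A with Cdc55 does to the response to high osmolarity by way of Msn2 and Msn4. What the plasmid encodes and which promoter drives it are not spelled out in the sources used here. Each strain and time had 1 array, and the labels do not say whether a strain is 1 clone, so p-values measure the spread among these arrays alone. The sample carried Cy5 and the reference, RNA of the untreated control strain, Cy3, so a log2 ratio above 0 stands for more RNA of that gene than untreated control cells had.

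The median Cy5 spot signal of an array was 5523 to 13697 over a background of 44 to 54, and no spot was saturated. CDC55 itself had log2 ratios of 0.14 to 0.45 on the control arrays and -0.54 to -0.21 on the cdc55 arrays, and the groups did not overlap. The share of all probes whose strains did not overlap was not counted. The strain difference of CDC55 was -0.65 under NaCl and -0.65 before it, and neither passed in the limma comparisons given below. The sources used here do not say whether the CDC55 probe falls within the deletion. The scanner files of control 10 min and cdc55 0 min, and of control 30 min and cdc55 20 min, held each other's values when set against the deposited value table, and were exchanged back. Of the 8 files 3 lack a settings block, namely control cells at 0 and 10 min and cdc55 cells at 0 min, so for cdc55 cells file type and NaCl cannot be told apart. The strains also differ in file type at 10 min, but not at 20 and 30 min. Non-uniform Cy5 spots numbered 267 on the control array at 10 min and 8 on the cdc55 array. The 2 spots of a member on an array differed by a median of 0.087 (log2) against 0.094 for all tested probes. SSA1 at 30 min in control cells and at 20 min in cdc55 cells, and HSP82 at 0 min in cdc55 cells, had spots 0.67, 0.66 and 0.69 apart.

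Among the Hsp70 genes SSA4 had the highest ratios under NaCl. SSA4, a stress-inducible cytosolic Hsp70 gene, had log2 ratios of 0.05, 3.14, 2.90 and 3.03 in control cells at 0, 10, 20 and 30 min. For cdc55 cells they were -0.12, 2.58, 1.92 and 1.61. All 6 arrays with NaCl lay above both arrays without it, and at each time with NaCl the cdc55 array was the lower of the pair. The share of all probes whose arrays with and without NaCl separate in this way was not counted, here and for the genes below. The other gene of this inducible class, SSA3, had ratios of -0.13, 0.73, 0.62 and 0.63 in control cells and 0.15, 0.71, 0.54 and 0.23 in cdc55 cells. Its arrays with NaCl also lay above both at 0 min, but the cdc55 array at 30 min did so by only 0.08, measured against its own 0 min array.

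Of the Hsp70 genes usually described as constitutive, SSA1 had ratios of at least 1.01 on all NaCl arrays and SSA2 of at most 0.75. SSA1 had ratios of -0.17, 1.01, 1.29 and 1.28 in control cells at 0, 10, 20 and 30 min, and 0.11, 1.73, 1.31 and 1.01 in cdc55 cells. All 6 arrays with NaCl were above both arrays at 0 min. SSA2 had ratios of 0.07, 0.01, 0.29 and 0.18 in control cells and 0.14, 0.75, 0.34 and -0.15 in cdc55 cells. For SSA2 the arrays with and without NaCl overlapped, and the cdc55 array at 10 min stood highest. SSA1 and SSA2 are near-identical copies, and how far each probe also binds RNA of the other gene was not tested.

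**Figure D1:**
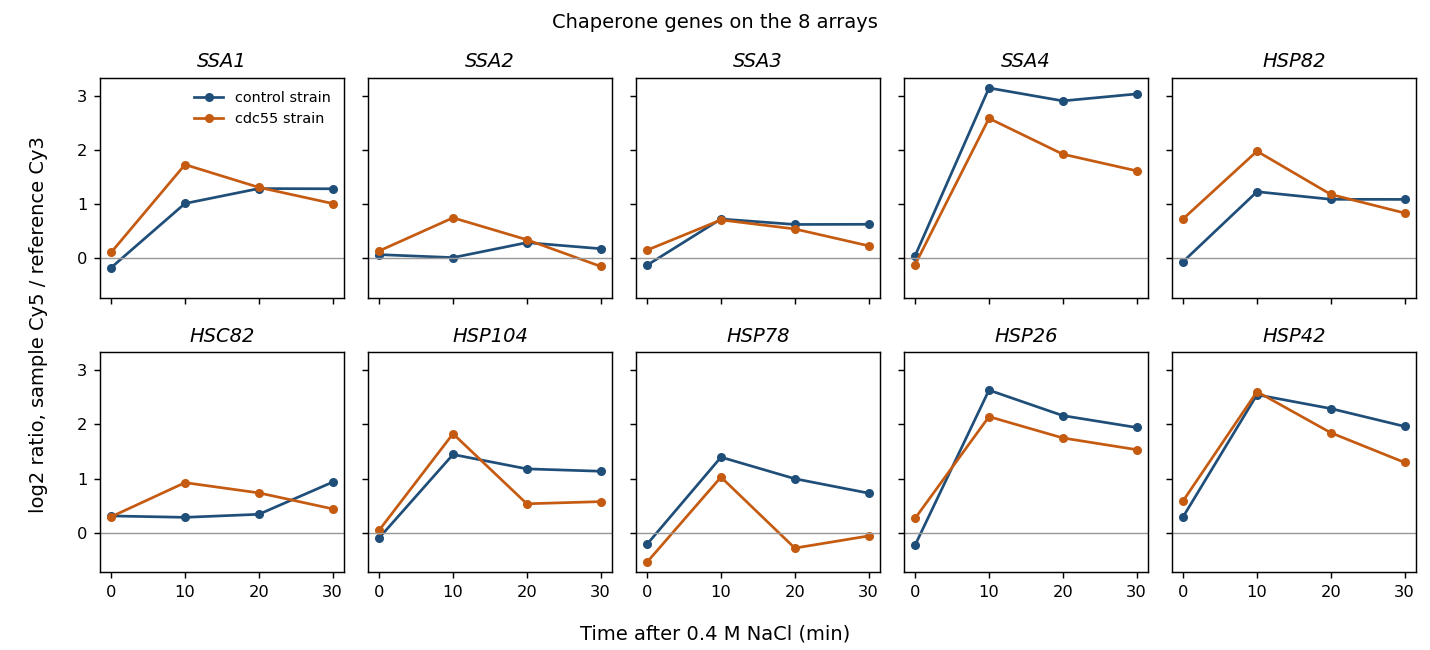
Log2 ratio of sample (Cy5) over reference (Cy3) of each of the 10 genes against time after NaCl in minutes, with 1 array per point, in control cells (blue) and cdc55 cells (orange). SSA4, HSP26 and HSP42 reach above 2 in both strains at 10 min, and SSA2 stays between -0.15 and 0.75.

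The Hsp90 genes split in a similar way in control cells, but less so in cdc55 cells when read against their own 0 min array. HSP82, the copy known as inducible, had ratios of -0.06, 1.23, 1.09 and 1.09 in control cells and 0.73, 1.98, 1.18 and 0.83 in cdc55 cells. The cdc55 array without NaCl, at 0.73, was thus already close to the NaCl arrays, and the 2 spots behind that value read 0.385 and 1.07. HSC82, the constitutive copy, had ratios of 0.31, 0.28, 0.34 and 0.93 in control cells and 0.29, 0.92, 0.73 and 0.44 in cdc55 cells. Its highest arrays were 30 min in control cells and 10 min in cdc55 cells, and arrays with and without NaCl overlapped. In cdc55 cells at 20 and 30 min HSP82 was above its own 0 min array by 0.450 and 0.107. HSC82 was above its own by 0.440 and 0.145. These copies too are near-identical, with the same limit on the probes.

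HSP104, the cytosolic disaggregase gene, had ratios of -0.09, 1.44, 1.18 and 1.13 in control cells and 0.05, 1.83, 0.53 and 0.57 in cdc55 cells. The cdc55 array was the higher of the pair at 10 min and the lower at 20 and 30 min. HSP78, its mitochondrial relative, had ratios of -0.21, 1.39, 1.00 and 0.73 in control cells and -0.54, 1.03, -0.28 and -0.06 in cdc55 cells. In cdc55 cells HSP78 was thus near the reference at 20 and 30 min, above its own 0 min array by 0.26 and 0.48.

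The small heat shock protein genes came next to SSA4. HSP26 had ratios of -0.23, 2.63, 2.16 and 1.94 in control cells and 0.27, 2.14, 1.75 and 1.53 in cdc55 cells. HSP42, whose product also gathers misfolded proteins into deposits, had ratios of 0.30, 2.55, 2.29 and 1.96 in control cells and 0.59, 2.60, 1.84 and 1.30 in cdc55 cells. For both genes every NaCl array lay above both 0 min arrays, and 10 min was the highest time in each strain.

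The first comparison asked how far NaCl changed these genes in control cells, as the mean of 10, 20 and 30 min minus 0 min in limma, with p-values adjusted over all 6108 probes. Of the 10 genes 8 rose, where 7.66% of all probes passed as higher, and SSA2 and HSC82 did not pass. The median change was 1.30 against 0.00 for all tested probes. SSA4 rose by 2.98 ± 0.26 (log2, SE; 7.87-fold; limma adjusted p = 0.00478). HSP26 rose by 2.47 ± 0.17 (5.54-fold; limma adjusted p = 0.00262) and HSP42 by 1.97 ± 0.24 (3.92-fold; limma adjusted p = 0.0113). These 3 genes ranked 41, 61 and 96 from the top among all tested probes.

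SSA1, HSP104, HSP78, HSP82 and SSA3 rose by 1.37, 1.35, 1.25, 1.20 and 0.78, with limma adjusted p between 0.0367 and 0.0496. SSA2 was at 0.09 ± 0.30 and HSC82 at 0.21 ± 0.33 (adjusted p = 0.860 and 0.694). With median centring of the arrays in place of loess SSA2 and HSC82 turned to -0.44 and -0.45, and the calls over all probes to 539 higher and 658 lower from 468 and 360. Both probes were brighter than 98.2% and 99.1% of the tested probes. Of the 8 calls only HSP26 was kept without the 20 min arrays (adjusted p = 0.0427). SSA3 was lost with no background correction, median centring, the Agilent log ratio or no filter on dim probes (adjusted p from 0.0505 to 0.055), HSP82 with the first, second and last of these (0.051 to 0.0528), and HSP104 with the last (0.0502). With the control array at 0 min left out, an alternative added after seeing the data, 9 genes passed. HSC82 was among them, at 0.52 (limma adjusted p = 0.0365). Of all probes 1771 then passed as higher and 1737 as lower, against 468 and 360.

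In cdc55 cells the same comparison gave positive changes for all 10 genes, and 3 rose, where 2.88% of all probes passed as higher. SSA4 rose by 2.15 ± 0.26 (4.45-fold; limma adjusted p = 0.0170), HSP26 by 1.54 ± 0.17 (2.91-fold; adjusted p = 0.0122) and HSP42 by 1.33 ± 0.24 (2.51-fold; adjusted p = 0.0444). SSA1 was at 1.24 ± 0.29 (adjusted p = 0.0756), beside 1.37 in control cells. It passed with median centring (0.0336), without the 10 min arrays (0.00702), without the 30 min arrays (0.0344) and with a strain term constant over time (0.00369). HSP104 was at 0.93 ± 0.32, HSP78 at 0.77 ± 0.27 and HSP82 at 0.60 ± 0.29, with adjusted p of 0.140, 0.149 and 0.252. HSC82, SSA3 and SSA2 were at 0.40, 0.34 and 0.18. The median over the 10 genes was 0.85 against 0.01 for all tested probes. Without the 20 min arrays 0 of the 3 calls were kept (adjusted p = 0.122 for HSP26, 0.132 for SSA4 and 0.236 for HSP42). At an unadjusted limma p under 0.05 there were then 6 of 10 genes and 761 of all 6108 probes. A strain term held constant over time, which gives both strains 1 common response, called 8 of the 10, with 1284 of all probes higher and 1180 lower, against 176 and 80. With median centring the calls over all probes were 273 higher and 273 lower, against 176 and 80, and SSA2 was at -0.15.

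**Figure D2:**
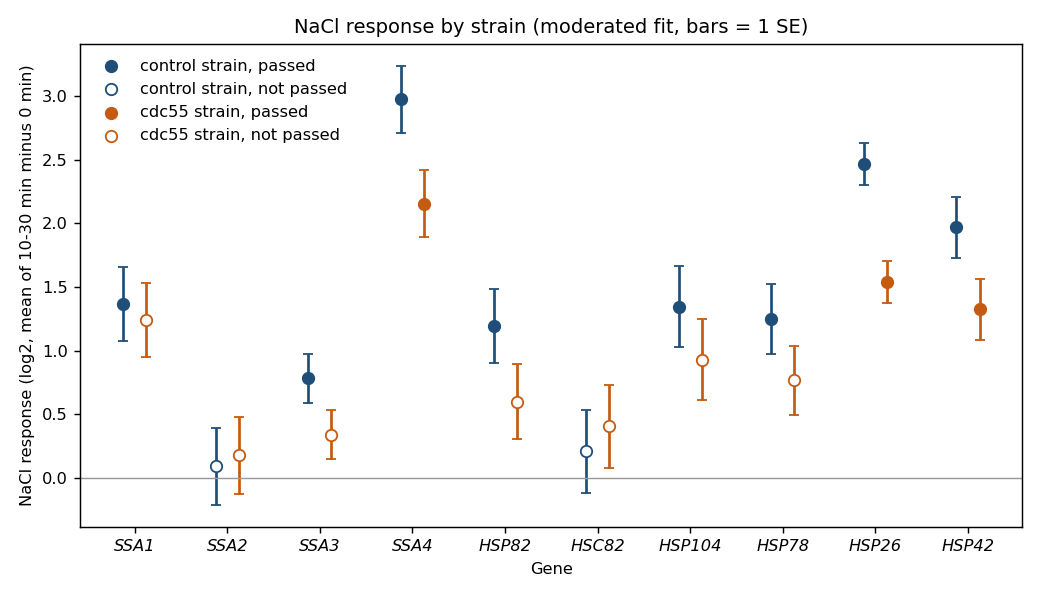
NaCl response (log2, mean of 10, 20 and 30 min minus 0 min) of the 10 genes in control cells (blue) and cdc55 cells (orange), with bars of 1 SE of the moderated fit and filled points for genes past the adjusted threshold of 0.05. In control cells 8 points are filled and in cdc55 cells 3, those of SSA4, HSP26 and HSP42.

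Inducible and constitutive paralogs were then compared within each array, as the difference of their log2 ratios. This is a difference of changes against the reference, not of RNA levels. SSA4 exceeded SSA2 on the NaCl arrays by 3.13, 2.61 and 2.85 in control cells and by 1.83, 1.58 and 1.76 in cdc55 cells. At 0 min the difference was -0.02 and -0.25. The mean over the 6 NaCl arrays was 2.30 ± 0.65 (SD, n = 6 arrays; exact sign-flip permutation test, two-sided, p = 0.0312, adjusted p = 0.0391 over 5 pairs). That p is the smallest that 6 arrays allow. The cdc55 values were all below the control values.

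SSA4 exceeded SSA1 by less, 1.26 ± 0.65 (SD, n = 6 arrays; same exact test, adjusted p = 0.0391). The difference was 2.13, 1.62 and 1.75 in control cells and 0.85, 0.61 and 0.60 in cdc55 cells, again with no overlap between the strains. SSA1, placed here on the constitutive side, itself rose by 1.37 in control cells. SSA3, although counted with SSA4 as inducible, changed less than SSA1 on all 6 NaCl arrays, with a mean difference of -0.70 ± 0.24 (SD, n = 6 arrays; exact test, adjusted p = 0.0391). Against SSA2 it was higher on 5 of 6 arrays, with a mean of 0.34 ± 0.25 (SD, n = 6 arrays), and did not pass (exact test, adjusted p = 0.0625). With the log ratio of the Agilent software this last pair passed (mean 0.38, exact adjusted p = 0.0391).

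HSP82 exceeded HSC82 on all 6 NaCl arrays, by 0.94, 0.75 and 0.15 in control cells and 1.05, 0.44 and 0.40 in cdc55 cells. The mean was 0.62 ± 0.35 (SD, n = 6 arrays; exact test, adjusted p = 0.0391), and with the log ratio of the Agilent software it was 0.47 and did not pass (exact adjusted p = 0.0625). At 0 min the difference was -0.37 in control cells and 0.43 in cdc55 cells, beside 0.44 and 0.40 at 20 and 30 min in the latter. The reference is RNA of the untreated control strain, so the control array at 0 min sets like against like. Over all tested probes that array had an SD of 0.150 (log2), and the source of its -0.37 was not tested. The 6 arrays are different times and strains that share 1 reference, not repeated cultures. The exact test reaches its smallest p whenever all 6 differences have 1 sign. The adjusted p of 0.0391 rests on several pairs reaching it together, and the SSA pairs reuse the same probes. The share of all gene pairs with 1 sign on the 6 arrays, or with no overlap between the strains, was not counted.

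**Figure D3:**
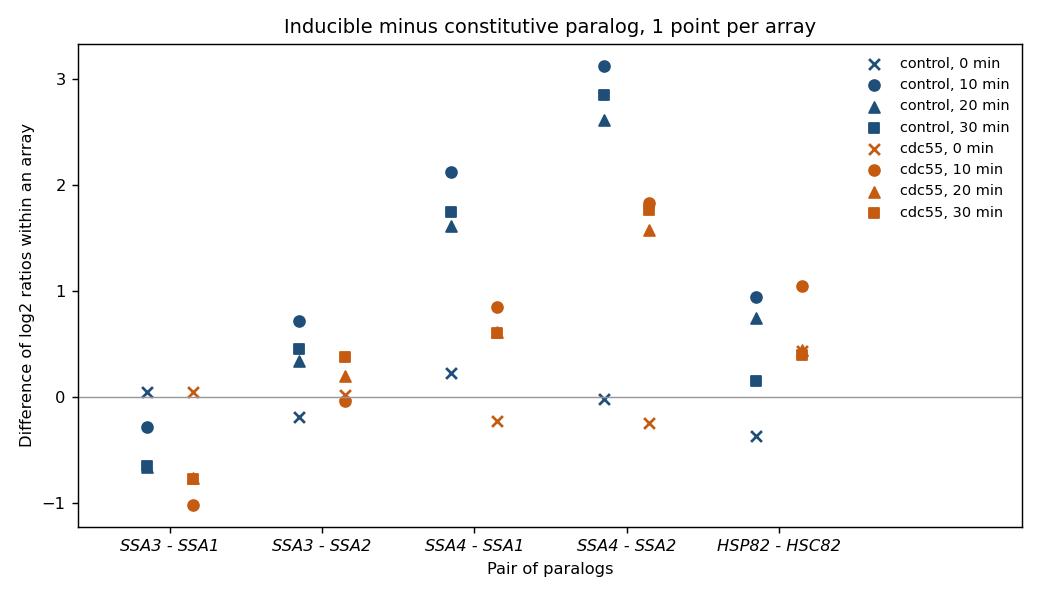
Difference of log2 ratios, inducible minus constitutive paralog, for 5 pairs of genes, with 1 point per array, coloured by strain and with crosses for 0 min. For SSA4 minus SSA2 the NaCl arrays lie between 1.58 and 3.13 and the 0 min arrays at -0.02 and -0.25, while SSA3 minus SSA1 is negative on all NaCl arrays.

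The strains were next compared under NaCl, as cdc55 minus control over 10, 20 and 30 min. None of the 10 genes passed in limma (3 at an unadjusted p under 0.05), where 2.21% of all probes did. At that unadjusted level there were 1502 of all 6108 probes. Of the 10, SSA4 had the largest difference, -0.99 ± 0.19 (log2, SE; limma adjusted p = 0.0583), followed by HSP78 at -0.81 ± 0.19 (adjusted p = 0.0882), HSP26 at -0.44 ± 0.12 (adjusted p = 0.105), HSP42 at -0.35 ± 0.17 and HSP104 at -0.27 ± 0.22. SSA3 was at -0.17, and SSA1, SSA2, HSP82 and HSC82 were at 0.16, 0.15, 0.20 and 0.18. SSA4 passed under 6 of the alternatives, with adjusted p from 0.00106 without the 10 min arrays to 0.0480 with an intensity trend in the variance. HSP78 passed under 3 of them (adjusted p from 0.00300 to 0.0470), and HSP104 passed without the 10 min arrays (-0.60, adjusted p = 0.0374). Over all probes 1012 passed without the 10 min arrays, 834 with a constant strain term and 403 with median centring, against 135. The Agilent log ratio and the deposited table, both among the alternatives that SSA4 passed, gave it the same -1.11. Without the 20 min arrays SSA4 and HSP78 did not pass (adjusted p = 0.376 and 0.444), and 0 probes did.

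The strain difference was also read at each time. At 0 min 3 of 10 genes were lower in cdc55 cells and the median difference was 0.21; HSP82 at 0.79 and HSP26 at 0.49 differed most. None of the 10 passed before NaCl in limma, 0 of them also at an unadjusted p under 0.05, where 0.0491% of all probes passed. At that unadjusted level there were 411 of all 6108 probes. At 10, 20 and 30 min 4, 6 and 10 of 10 genes were lower in cdc55 cells, against 51.0%, 46.1% and 54.2% of all tested probes. The median difference went from 0.22 through -0.25 to -0.45. For SSA4 it was -0.56, -0.98 and -1.42, for HSP42 0.06, -0.45 and -0.67, and for HSP104 0.38, -0.64 and -0.56. HSP26 differed by about as much at each time, -0.49, -0.41 and -0.41. SSA1, SSA2, HSP82 and HSC82 were higher in cdc55 cells by 0.72, 0.73, 0.75 and 0.64 at 10 min. At 30 min they stood at -0.27, -0.33, -0.25 and -0.49. Their probes were brighter than 93.4%, 98.2%, 95.7% and 99.1% of the tested probes, and that of HSP42 than 94.8%. A link with brightness was not tested. At 10 min the control file lacks a settings block and the cdc55 file has it, so strain and file type cannot be told apart at that time.

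**Figure D4:**
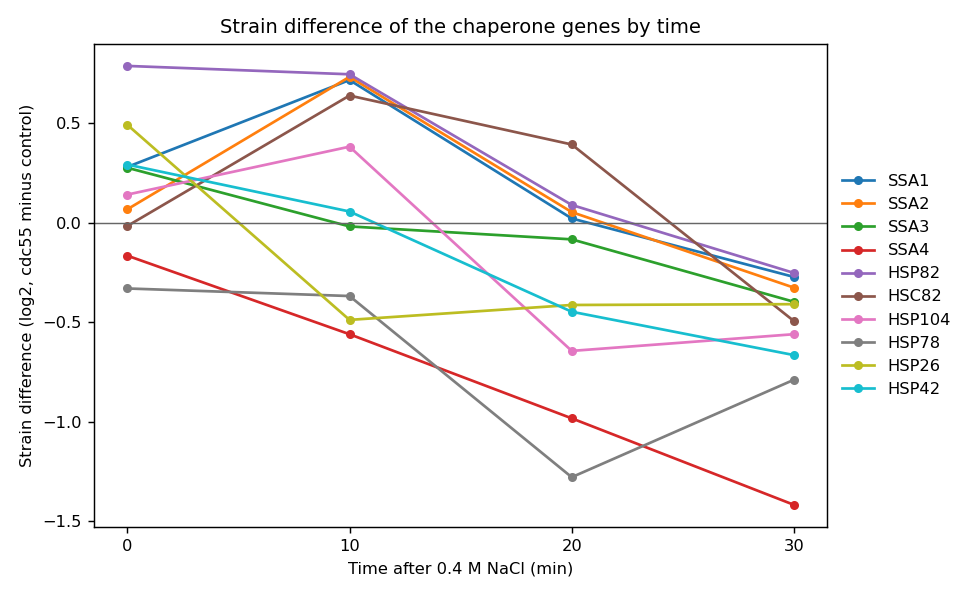
Strain difference (log2 ratio of cdc55 cells minus that of control cells) of each of the 10 genes against time after NaCl in minutes, with 1 pair of arrays per point. All 10 lines lie below 0 at 30 min, with SSA4 lowest at -1.42.

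Whether the NaCl response itself differed was tested as the response of cdc55 cells minus that of control cells. The difference was negative for 8 of 10 genes, with a median of -0.46 against 0.01 for all tested probes. Among all 6108 probes 3234 had a positive difference. None of the 10 passed in limma (1 at an unadjusted p under 0.05), and 0% of all probes did. At that unadjusted level there were 81 of all 6108 probes. HSP26 differed by -0.93 ± 0.24, with an unadjusted p of 0.00766 and an adjusted p of 1. SSA4 was at -0.82 ± 0.37, HSP42 at -0.64 ± 0.34 and HSP82 at -0.59 ± 0.41. SSA2 and HSC82 were at 0.09 and 0.20. Each strain had 1 array at 0 min, and every such difference rests on those 2 arrays, so that a gene that did not pass is not shown to respond alike in both strains.

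Within the NaCl arrays most members were highest at 10 min, namely 10 of 10 in cdc55 cells and 7 of 10 in control cells. The share of all probes highest at 10 min was not counted. With both strains averaged, 30 min minus 10 min was negative for 9 of 10 genes, and HSC82 was at 0.08. The median was -0.59 against -0.01 for all tested probes, of which 2994 of 6108 were above 0. HSP42 was at -0.95 ± 0.21 (limma adjusted p = 0.0510), HSP78 at -0.87 ± 0.24 (adjusted p = 0.0745), HSP104 at -0.78 ± 0.27 and HSP26 at -0.65 ± 0.14 (adjusted p = 0.0514). None of the 10 passed in limma (5 at an unadjusted p under 0.05), where 7.76% of all probes did. At that unadjusted level there were 1797 of all 6108 probes. With median centring HSP42, HSP82, SSA2 and HSP78 passed, and so did 750 of all probes, against 474. At 20 against 10 min none passed either (3 at an unadjusted p under 0.05), where 0.0164% of all probes did. At the unadjusted level there were 1265 of all 6108 probes. In each strain's own response the median over the 10 genes was 1.41, 1.24 and 1.19 at 10, 20 and 30 min in control cells and 1.59, 0.47 and 0.50 in cdc55 cells. Single members fell off in control cells too, HSP26 from 2.86 at 10 min to 2.17 at 30 min and HSP78 from 1.60 to 0.94. In control cells the 10 min file lacks the settings block that the 20 and 30 min files hold. Between 10 min and the later times file type and time cannot be told apart there. Whether the time courses of the strains differ was not tested.

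The members also differed in how alike they moved over the 8 arrays, given here as a description. HSP26 correlated with HSP42 at r = 0.968 and with SSA4 at r = 0.961, and SSA3 with HSP42 at r = 0.974, each over 8 arrays that share 1 reference. SSA2 correlated with SSA4 at 0.278 and HSC82 with HSP78 at 0.191. The genes most like SSA4 were IMA1, YGR117C, EDC2, TSL1 and TKL2, with r of 0.99 to 0.973. Those most like HSP104 were PAM1, YOL099C, SVP26, HSP42 and FUS2 (r = 0.985 to 0.946), and those most like HSP82 were PPT2, MAM3, YMR114C, NCA3 and YIL054W (r = 0.961 to 0.952). At r over 0.9 SSA4 had 200 probes, HSP104 49 and HSP82 27.

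Other genes of the chaperone network were described through 8 lists. In control cells 468 of all 6108 probes passed as higher and 360 as lower, and in cdc55 cells 176 and 80. Of 10 Hsp70 co-chaperone genes SSE2, which encodes a nucleotide exchange factor, rose in control cells by 1.46 ± 0.22 (limma adjusted p = 0.0184) and in cdc55 cells by 1.52 ± 0.22 (adjusted p = 0.0265). The other 9 did not pass in either strain, YDJ1 and SIS1, the main J-proteins, among them. Of 12 Hsp90 co-chaperone genes the cyclophilin gene CPR6 rose by 1.07 ± 0.22 (adjusted p = 0.0351) and TAH1 fell by 0.70 ± 0.17 (adjusted p = 0.0485) in control cells, and 10 did not pass. In cdc55 cells none passed in limma (7 at an unadjusted p under 0.05, as were 1604 of all 6108 probes), with CPR6 at 0.70 and TAH1 at -0.56. With median centring CPR6 came to 0.53 in control cells and lost its call (adjusted p = 0.153), and TAH1 lost its call with median centring, the Agilent log ratio and the deposited table (0.0547 to 0.0624). The median changes of these lists were 0.26 and 0.14 in control cells, against 1.30 for the 10 chaperone genes.

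Chaperones of the ribosome, the chaperonin system and the organelles gave 3 calls in all in control cells. Over all 6108 probes 468 passed as higher there and 360 as lower. SSB1, a ribosome-bound Hsp70, fell by 0.82 ± 0.17 in control cells (limma adjusted p = 0.0339), and the other 3 genes of its system had negative changes that did not pass. SSB1 was at -1.51 with median centring, and its call was lost with the Agilent log ratio (0.0559), without the 30 min arrays (0.0535) and with an intensity trend (0.0546). Of the 14 chaperonin and prefoldin genes none passed in limma (3 at an unadjusted p under 0.05 in control cells and 2 in cdc55 cells). At that unadjusted level there were 2106 of all 6108 probes in control cells and 1604 in cdc55 cells. YKE2, a prefoldin subunit gene, had the largest change, -0.65 ± 0.19 (adjusted p = 0.0677). Of 10 mitochondrial chaperone genes MDJ1, a J-protein, rose by 0.90 ± 0.21 (adjusted p = 0.0455) and 9 did not pass, and of 10 genes of the endoplasmic reticulum KAR2, its Hsp70, rose by 0.87 ± 0.21 (limma, adjusted p just under the threshold of 0.05). The KAR2 call was lost under 8 alternatives, and with median centring KAR2 came to 0.41 (adjusted p = 0.283). The MDJ1 call was lost with the Agilent log ratio (0.0542) and without the 10 min arrays (0.0586). In cdc55 cells none of these lists had a call in limma. At an unadjusted p under 0.05 there were 0 ribosomal, 0 mitochondrial and 1 endoplasmic reticulum genes, with MDJ1 at 0.45 and KAR2 at 0.53.

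Of 11 sequestrase and other heat shock genes 6 rose in control cells and 2 in cdc55 cells. Across all probes 7.66% in control cells and 2.88% in cdc55 cells passed as higher. HSP12, a small membrane-associated protein and strong Msn2 target, rose by 6.61 ± 0.31 and 6.49 ± 0.31 in control and cdc55 cells (limma adjusted p = 7.00e-04 and 7.73e-04). SNO4 and HSP32, near-identical family members whose probes may share RNA, rose by 1.56 and 1.48 and OPI10 by 1.52 in control cells. In cdc55 cells these were at 1.01, 0.93 and 1.18 and did not pass, while MBF1, a transcriptional coactivator gene, rose in both strains, by 1.40 ± 0.21 and 1.16 ± 0.21 (adjusted p = 0.0184 and 0.0455; the second was lost with an intensity trend, 0.0542). Of 6 regulator genes, MSN4 rose by 1.08 ± 0.19 and 1.04 ± 0.19 in both strains although labelled as deleted, with the same limit on what its probe covers, and YAP1, an oxidative stress factor, rose by 0.97 ± 0.22 in control cells. HSF1 had a change of 0.69 ± 0.22 in control cells (limma adjusted p = 0.0875). MSN2, also labelled as deleted, had log2 ratios of -0.14 to 0.23 over the 8 arrays. Its probe was well above background on 6 arrays in Cy5 and on 2 in Cy3. Without the 20 min arrays 33 probes passed in control cells and 13 in cdc55 cells, and of the genes named from these lists only HSP12 passed (adjusted p = 0.0072 and 0.0073).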

How the data were processed

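Per the file headers, the deposited scanner files hold median spot and background intensity per channel, a log10 ratio of Cy5 over Cy3 made by the Agilent software, and 0 or 1 flags per spot (5 files name Agilent Feature Extraction 10.5.1.1; 3 name no version). The deposited table of log2 values states no scale, centring or direction; 5646 of its 5742 complete rows (98.3%) equalled 1 probe's log2 ratio of Cy5 over Cy3 within 0.01 on all 8 arrays once 4 files were exchanged, against 2 with the files as attached. No row name equalled that of the matched probe, so rows took the name of the probe with equal values. Its column medians were -0.01 to 0.05.

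Intensities were corrected with normexp (offset 50) and normalised by loess per array in R 4.3.3 with limma 3.58.1; non-uniform spots were left out and the 2 spots of a probe averaged. Probes had to be well above background in Cy5 on at least 3 arrays, which left 6108. The fit had 6 coefficients for 8 arrays (times, and strain terms without and with NaCl), 2 residual and 3.93 prior degrees of freedom, Benjamini-Hochberg adjustment over all probes and a threshold of 0.05. Its p-values measure mainly how the strain difference varied over 3 times and hold no spread between cultures; the number of arrays limits the precision. Paralogs used an exact sign-flip test. The fit was tested on simulated data. It missed NaCl responses and differences of responses of the smallest size tried, so not passing does not show that a gene is unchanged. The members and lists were chosen with earlier results of these data known. All 10 members are named, with up to 4 genes of each list past the threshold (the largest change if none passed) and the 5 genes most like SSA4, HSP104 and HSP82. YDJ1, SIS1, HSF1, MBF1 and the genes under other observations were named after their values were seen. Symbols come from a RefSeq gene table of another build, which held 5740 of 6228 systematic names, so no coordinates are given. Python 3.11.15 was used for reading and figures. Alternatives are given in the closing section.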

Additional observations from a re-analysis of the deposited data

How the results depend on the processing

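No paired analysis was possible because the labels give no replicate numbers to use as a block. The fit already compares the strains within time points, and paralogs were compared within arrays. Where 10, 20 or 30 min arrays were left out, comparisons that need that time gave no value; a strain term constant over time gives no difference of responses. With 4 scanner files left as attached, 0 members and 0 probes passed in each comparison. With that setting aside, 790 of 911 results for single genes under the alternatives kept direction and side of the threshold. Another 54 lost it, 51 gained it and 16 turned, and the cause was not tested. The 911 include comparisons in which no member passed, where keeping the same side says little about stability. How many of them were calls at the start was not counted. The Agilent ratio and the deposited table, counted separately, hold nearly the same values.

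Members called. Control response, 5 without the dim filter, 6 with no background correction or median centring, 7 with the Agilent log ratio, 1 without the 20 min arrays. Response of the cdc55 strain, 0 without the 20 min arrays, 8 with a strain term constant over time. Strain difference under NaCl, 2 with median centring or a constant strain term, 1 with the Agilent log ratio, the deposited table or an intensity trend, 3 without the 10 min arrays. Strain difference before NaCl, 2 with a constant strain term. At 20 against 10 min, 1 with median centring. At 30 against 10 min, 4 with median centring and 1 with the Agilent ratio, the deposited table, non-uniform spots kept or a constant strain term.

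Probes called. Control response (468 higher and 360 lower in the report), 1750 without 10 min, 33 without 20 min, 2464 with a constant strain term and 3508 with the control array at 0 min left out, an alternative chosen after seeing the data. Response of the cdc55 strain (176 higher and 80 lower), 546 with median centring, 961, 13 and 924 without 10, 20 and 30 min, and 2464 with a constant strain term. Strain difference under NaCl (135), 403 with median centring (146 higher, 257 lower, against 22 and 113), 1012, 0 and 29 without 10, 20 and 30 min, 834 with a constant strain term and 212 with an intensity trend. Before NaCl (3), 20 with median centring, 5 with the Agilent ratio or a trend, 72 and 0 without 10 and 20 min, 834 with a constant strain term. Difference of responses (0), 2 without 10 min. At 20 against 10 min (1), 264 with median centring, 0 with the Agilent ratio, the deposited table or no dim filter, 118 without 30 min, 141 with a constant strain term and 25 with a trend. At 30 against 10 min (474), 750 with median centring (397 higher, 353 lower, against 205 and 269), 7 without 20 min and 1040 with a constant strain term.

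Paralog differences with the files as attached were -0.64 (SSA3 minus SSA1), 0.87 (SSA4 minus SSA1), 1.73 (SSA4 minus SSA2) and 0.54 (HSP82 minus HSC82), each at an exact adjusted p of 0.0781. With the Agilent ratio or the deposited table SSA3 minus SSA2 was 0.38 and HSP82 minus HSC82 0.47.

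Values that turned. With median centring SSA2 and HSC82 were at -0.44 and -0.45 in the control response, SSA2 at -0.15 in the cdc55 response and HSC82 at -0.49 at 30 against 10 min. Without the 10 min arrays SSA2 was at -0.039 in the cdc55 response, SSA1, SSA2, HSP82 and HSC82 at -0.12, -0.14, -0.081 and -0.050 in the strain difference under NaCl, and SSA2 and HSC82 at -0.20 and -0.034 in the difference of responses. Without the 30 min arrays SSA1 was at 0.089 there. With the Agilent ratio and with the deposited table HSC82 was at -0.057 and -0.057 in the strain difference, and at -0.068 and -0.067 in the difference of responses. With the files as attached the cdc55 responses were -0.10 for SSE2, 0.18 for TAH1, -0.90 for MDJ1, -0.92 for OPI10, -0.09 for HSP32, -0.10 for MSN4, -0.54 for MBF1, -0.20 for SSA3, -0.73 for SSA4, -0.26 for HSP104, -0.83 for HSP78, -0.76 for HSP26 and -0.59 for HSP42. The strain differences were then 0.083 for SSA3, 0.84 for SSA4, 0.59 for HSP104, 0.51 for HSP78, 0.48 for HSP26 and 0.38 for HSP42, and the changes from 10 to 30 min 0.24 for SSA1, 0.53 for SSA4, -0.022 for HSC82 and 0.43 for HSP26.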

Other observations

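Some chaperone genes outside the 10 were high only at 10 min, chosen here after their values were seen. BTN2, a sequestrase gene that sorts misfolded proteins, had log2 ratios of -0.09, 1.82, -0.39 and -0.01 in control cells at 0, 10, 20 and 30 min and 0.38, 1.96, -0.48 and 0.23 in cdc55 cells. It was the only probe of 6108 that passed at 20 against 10 min, with a change of -2.32 ± 0.16 (log2, SE; limma adjusted p = 0.0424). 0 probes passed there with the log ratio of the Agilent software, with the deposited table or without the filter on dim probes. CUR1, its paralog, had ratios of 1.49 and 0.95 at 10 min and 0.24 and -0.84 at 20 min in control and cdc55 cells, with a change of -1.53 ± 0.28 that did not pass (adjusted p = 0.101; 0.0243 with median centring and 0.0362 without the 30 min arrays). APJ1, a J-protein gene, had ratios of 1.07 and 0.74 at 10 min and -0.82 and -1.65 at 20 min, and fell by 1.34 ± 0.24 from 10 to 30 min (adjusted p = 0.0343). SSA4, HSP26 and HSP42, by contrast, were at 1.30 or more on all NaCl arrays.

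HSP30, a heat shock gene of the plasma membrane, went the other way. Its ratios were -2.62, -3.04 and -0.70 at 10, 20 and 30 min in control cells and -2.09, -1.33 and 1.95 in cdc55 cells, and it rose from 10 to 30 min by 2.98 ± 0.46 (limma adjusted p = 0.0283). Without the 20 min arrays APJ1 and HSP30 did not pass (adjusted p = 0.098 and 0.106).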
